A study of Rattus norvegicus with 6 samples.

Results

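The immediate early genes described here were *Fos*, *Fosb*, *Jun*, *Junb*, *Jund*, *Egr1*, *Nr4a1*, *Atf3*, *Ier2* and *Dusp1*. They were chosen by gene name among the spots of the arrays that were no controls. All 10 were found among 36174 gene names on the array, many of which are sequence accessions, with 13 of the 45598 probes and 42 spots. *Jun*, *Jund* and *Ier2* had 2 probes each and the other 7 genes had 1. Expression was measured in β-cells that had been sorted from cultured islets of young adult male Wistar rats, for which no transgene or deletion is named. Islets were kept with the thymidine analogue EdU overnight after isolation, dispersed with trypsin, fixed with paraformaldehyde, permeabilized and sorted by size, granularity and Newport Green, a zinc dye retained by β-cells. Replicating β-cells were EdU+, that is, they had made DNA during the labelling, and quiescent β-cells were EdU- from the same islets. There were 3 islet preparations, each pooled from 4 rats, and each gave 1 array of replicating and 1 array of quiescent β-cells, so the spread between single rats was not measured. The methods describe far fewer cells in the replicating than in the quiescent fraction.

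Immediate early genes are transcribed within minutes of a stimulus and need no new protein for it, because the factors that switch them on, such as SRF and CREB, are already in the nucleus and only have to be activated by kinases. Fos and Jun proteins join in pairs to form AP-1, a transcription factor, while Egr1 and Nr4a1 bind DNA by zinc fingers and Atf3 is a relative of AP-1 that often represses. In β-cells, glucose and agents that raise calcium or cyclic AMP are known to induce several of them, as do growth factors and cell stress in most tissues. Their transcripts are short-lived, and Dusp1, a phosphatase, switches off the MAP kinases that induced them.

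The stretch of 250 bases before the transcription start was available in RefSeq, on the rat assembly GRCr8, for 7 of the 10 genes, *Fosb*, *Junb*, *Jund*, *Egr1*, *Nr4a1*, *Ier2* and *Dusp1*. The promoters of *Junb* (chr19:40080876-40081125, plus strand), *Dusp1* (chr10:17184603-17184852, plus strand), *Nr4a1* (chr7:134259888-134260137, plus strand) and *Jund* (chr16:18769772-18770021, minus strand) are shown because these genes stand for the different patterns on the arrays: a higher value in the replicating β-cells of every preparation for *Junb* and *Dusp1*, ratios that differed in sign between preparations for *Nr4a1*, and a nearly flat level for *Jund*. Capitals mark the cyclic AMP response element (CRE), TGACGTCA, which CREB binds, and its short form, TGACG or CGTCA on the other strand, and each sequence ends at the base before the start.
Junb: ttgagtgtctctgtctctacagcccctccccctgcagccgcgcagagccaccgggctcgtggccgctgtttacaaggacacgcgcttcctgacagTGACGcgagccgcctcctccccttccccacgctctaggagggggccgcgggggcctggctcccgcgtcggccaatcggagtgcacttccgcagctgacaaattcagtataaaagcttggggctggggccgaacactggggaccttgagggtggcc
Dusp1: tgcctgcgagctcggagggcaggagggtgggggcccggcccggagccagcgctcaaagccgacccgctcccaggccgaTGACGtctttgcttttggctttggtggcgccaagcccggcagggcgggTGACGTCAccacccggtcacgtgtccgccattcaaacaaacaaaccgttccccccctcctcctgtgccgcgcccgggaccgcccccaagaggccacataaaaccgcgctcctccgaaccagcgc
Nr4a1: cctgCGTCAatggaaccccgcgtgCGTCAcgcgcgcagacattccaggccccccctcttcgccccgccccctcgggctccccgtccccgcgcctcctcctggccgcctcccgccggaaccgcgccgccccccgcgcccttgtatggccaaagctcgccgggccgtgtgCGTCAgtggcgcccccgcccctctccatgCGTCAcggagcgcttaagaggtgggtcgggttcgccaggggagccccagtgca
Jund: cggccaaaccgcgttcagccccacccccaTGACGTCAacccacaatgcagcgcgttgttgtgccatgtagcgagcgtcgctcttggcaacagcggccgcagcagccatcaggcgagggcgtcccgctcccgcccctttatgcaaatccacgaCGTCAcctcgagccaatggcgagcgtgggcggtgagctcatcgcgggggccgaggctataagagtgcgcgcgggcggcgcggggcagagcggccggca
The full CRE was found in 3 of the 7 promoters, those of *Jund*, *Ier2* and *Dusp1*, against 1.59% of 33469 rat promoters of the same length. The short form, which also lies within the full one, was found in 6 of 7 against 18.2%, and *Nr4a1* held it 4 times. On either strand, the site of AP-1 itself, TGAGTCA or TGACTCA, was in 0 of 7 against 4.05%, the CArG box of SRF in 1 of 7 (*Egr1*) against 1.50%, and the site of Egr factors, GCGTGGGCG or GCGGGGGCG, in 2 of 7 (*Jund* and *Nr4a1*) against 2.85%. The letters TATAAA were in 2 of 7 (*Fosb* and *Junb*) against 12.9%. The genes with a full CRE had unlike fitted log2 ratios of replicating over quiescent β-cells, 0.0029 for *Jund*, 0.10 for *Ier2* and 0.60 for *Dusp1*.

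All values below are the deposited log2 intensities after background correction and quantile normalization, and a log2 ratio is replicating over quiescent. The arrays were not equally alike. Pearson's r across all probes lay between 0.967 and 0.986 for pairs of replicating arrays, but was 0.867 for quiescent arrays 1 and 3, 0.830 for 1 and 2 and 0.654 for 2 and 3. Quiescent array 3 was more like a replicating array, with an r of up to 0.969, than like the other quiescent arrays. On it, 85.7% of all probes were well above background. The replicating arrays had 80.8% to 87.3%, and quiescent arrays 1 and 2 had 96.4% and 98.4%. The part of this likeness in the ratios of preparation 3 was not tested. Quiescent array 2 also had the most spots marked as outliers, 1583 against 252 to 299 on the others. The ratios of the immediate early genes and of the other genes called are given with and without it where it changed them most. Each of the 13 probes was well above background on all 6 arrays, and no spot was saturated. *Top2a*, a gene of dividing cells, rose in the replicating β-cells by 3.76 on the log2 scale, and the insulin genes *Ins1* and *Ins2* read between 15.51 and 17.20 on every array. The ratios of *Ins1* and *Ins2* were 0.25 and 0.42, with unadjusted p of 0.498 and 0.269 in limma. By qPCR, the study found insulin mRNA lower in the replicating β-cells.

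No immediate early gene was called, that is, passed the thresholds of the study, an absolute log2 ratio of 1 or more with an unadjusted p no higher than 0.05. The test was limma's, blocked by islet preparation. The count was 0 of 10, where 8.61% of all probes passed in either direction, 4.44% as higher and 4.18% as lower in the replicating β-cells. At an unadjusted p of at most 0.05 alone it was also 0 of 10, against 9.6% of all probes, and after Benjamini-Hochberg adjustment 0 of 45598 probes passed 0.05 in limma, the smallest adjusted p being 0.0977. Among the 10 genes the unadjusted p ranged from 0.0516 for *Junb* to 0.993 for *Jund*, and the adjusted p from limma from 0.475 to 0.998. The fitted ratio nevertheless lay above 0 for all 10 genes, from 0.0029 for *Jund* to 1.61 for *Egr1*. Their median was 0.69, against -0.07 for all probes and 0.01 for the 24347 probes within the same range of brightness.

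**Figure D1:**
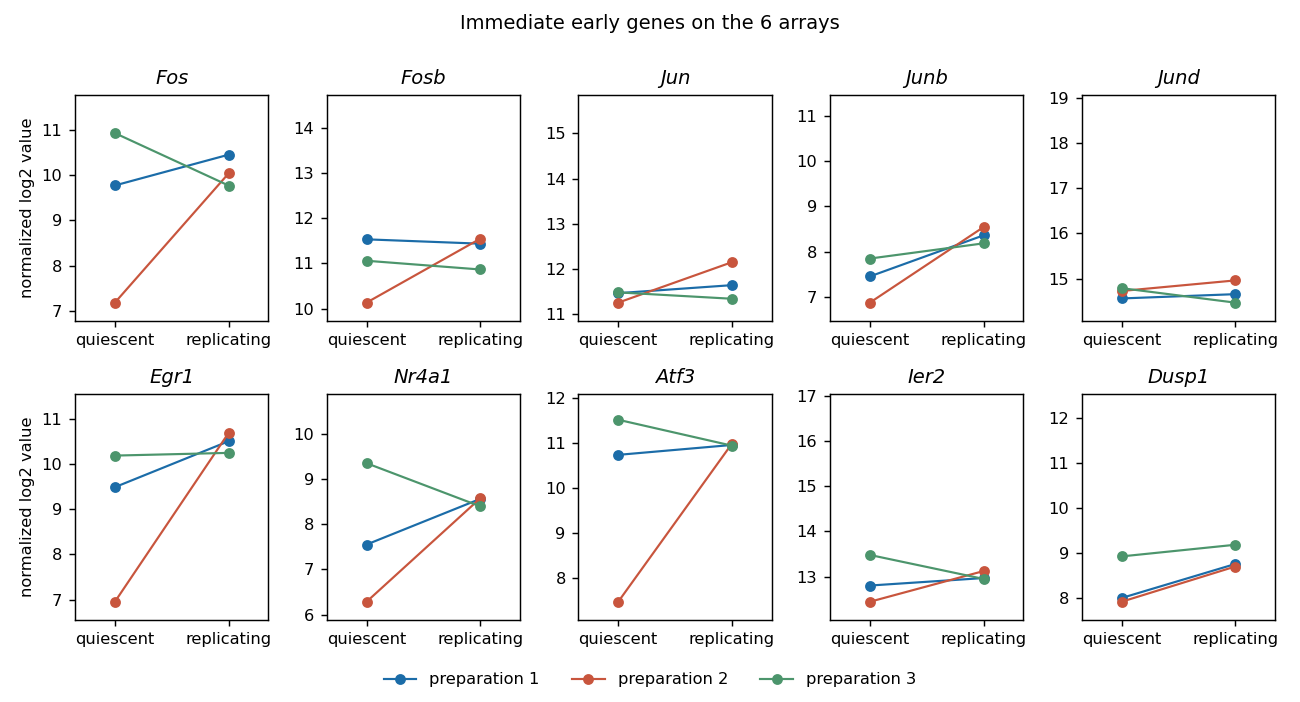
Normalized log2 value (vertical axis) of each immediate early gene in quiescent and replicating β-cells, 1 point per array, with lines joining the arrays of 1 islet preparation; all panels span the same number of log2 units. The replicating points lie close together, while the quiescent point of preparation 2 is the lowest of all 6 arrays for every gene but *Jund*.

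*Fos*, the AP-1 subunit that needs a Jun partner, was measured by a probe on chromosome 6 of the rat build rn4 (109561941 to 109562000, plus strand); for none of the probes do the files say in which part of the gene it lies. Its log2 value was 10.46, 10.04 and 9.77 in the replicating β-cells of preparations 1, 2 and 3, and 9.78, 7.18 and 10.94 in the quiescent β-cells. The replicating values fell inside the quiescent range, which spanned 3.76 log2 units. Means were 10.09 ± 0.34 and 9.30 ± 1.92 (SD, n = 3), for a ratio of 0.79 (standard error 0.78, 95% interval -1.21 to 2.79). The unadjusted p from limma was 0.357. The ratio was 0.68 and 2.86 in preparations 1 and 2, and -1.16 in preparation 3, the lowest ratio of any of the 10 genes in any preparation. Without preparation 2 the fitted ratio of *Fos* turned to -0.24 and without quiescent array 2 alone, in a fit with no block, to -0.26. Without preparation 3 it was 1.77, with an unadjusted p of 0.0496 in limma.

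*Fosb*, a close relative of *Fos*, had a probe on chromosome 1 (78666646 to 78666705, minus strand). It read 11.44, 11.55 and 10.87 in the replicating and 11.53, 10.13 and 11.06 in the quiescent β-cells. Only the quiescent value of preparation 2 stood below all the others. The ratio of 0.38 (standard error 0.44, 95% interval -0.75 to 1.50, unadjusted p = 0.434 in limma) was 1.42 in preparation 2 and slightly below 0, at -0.10 and -0.19, in preparations 1 and 3. Without preparation 2 it was -0.14.

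*Jun*, which can pair with itself as well as with Fos proteins, read 11.64, 12.15 and 11.34 in the replicating and 11.46, 11.25 and 11.48 in the quiescent β-cells, with its brighter probe (chromosome 5, 115359410 to 115359469, minus strand). Here the quiescent arrays lay within 0.23 of each other, a narrower span than the 0.81 of the replicating arrays. The ratio was 0.31 (standard error 0.36, 95% interval -0.60 to 1.22, unadjusted p = 0.423 in limma), with 0.18, 0.90 and -0.14 in the preparations. The other probe, from 115358764 to 115358823, read quiescent array 2 lower, at 9.91 against 10.85 and 11.25 on the other quiescent arrays, and had a ratio of 0.48 with an unadjusted p of 0.395 in limma. The probes of *Jun* thus placed quiescent array 2 at unlike distances from the others, by -0.22 in the brighter and -1.14 in the dimmer probe.

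*Junb*, a Jun protein that often opposes *Jun* in growth control, had the smallest p among the 10 genes. Its probe (chromosome 19, 24832781 to 24832840, plus strand) read 8.36, 8.54 and 8.18 in the replicating and 7.45, 6.87 and 7.84 in the quiescent β-cells. The groups did not overlap. Means were 8.36 ± 0.18 and 7.39 ± 0.49 (SD, n = 3), and the ratio was 0.97 (standard error 0.39, 95% interval -0.0099 to 1.96), or 1.96-fold. With an unadjusted p of 0.0516 and an adjusted p of 0.475 in limma, *Junb* did not pass. Its ratio was 0.91, 1.67 and 0.34 in the preparations. Without quiescent array 2 and without a block, a setting chosen after seeing the data, it was 0.71, with an unadjusted p of 0.0312 in limma. When the arrays were scaled to their 75th percentile in place of quantile normalization it was 0.47, with an unadjusted p of 0.377 in limma.

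*Jund*, the Jun protein that many resting cells hold at a steady level, did not differ between the fractions by more than its error. With its brighter probe (chromosome 16, 19239707 to 19239766, minus strand) it read 14.65, 14.96 and 14.47 in the replicating and 14.56, 14.72 and 14.79 in the quiescent β-cells. Means were 14.69 ± 0.25 and 14.69 ± 0.12 (SD, n = 3). The ratio was 0.0029 (standard error 0.32), and its 95% interval of -0.81 to 0.82 did not reach 1 in either direction. It was the only gene of the 10 whose quiescent array 2 was not the lowest, that value being 0.051 above the mean of the other quiescent arrays. The dimmer probe, from 19240333 to 19240392, gave -0.18 with an unadjusted p of 0.640 in limma, and there quiescent array 2 was the highest of the 6, at 10.11.

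*Egr1*, a zinc finger factor induced through SRF, had the largest ratio. Its probe (chromosome 18, 27346058 to 27346117, plus strand) read 10.51, 10.69 and 10.25 in the replicating and 9.49, 6.95 and 10.19 in the quiescent β-cells. The groups did not overlap, but the gap between the lowest replicating and the highest quiescent value, both of preparation 3, was 0.060. Means were 10.48 ± 0.22 and 8.88 ± 1.70 (SD, n = 3), for a ratio of 1.61 (standard error 0.75, 95% interval -0.31 to 3.52), or 3.04-fold. In limma this gave an unadjusted p of 0.0836, or 0.475 once adjusted. The ratio ran from 0.060 in preparation 3 to 1.02 in preparation 1 and 3.74 in preparation 2. It was 0.54 without preparation 2 and 0.64 without quiescent array 2 alone. In 2 settings *Egr1* passed the thresholds: scaled to the 75th percentile, at 1.19 with an unadjusted p of 0.0368, and without preparation 3, at 2.38 with an unadjusted p of 0.0324, both in limma.

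*Nr4a1*, an orphan nuclear receptor, read 8.56, 8.58 and 8.40 in the replicating and 7.55, 6.28 and 9.35 in the quiescent β-cells (chromosome 7, 140020442 to 140020501, plus strand). The replicating arrays lay within 0.18 of each other and the quiescent arrays spanned 3.07, on both sides of them. The value of 6.28 on quiescent array 2 was near 5.91, the lowest value of any probe well above background there. The ratio was 0.78 (standard error 0.66, 95% interval -0.90 to 2.47, unadjusted p = 0.288 in limma), with 1.01, 2.29 and -0.96 in the preparations. Without preparation 2 it was 0.028, and without preparation 3 it was 1.65, with an unadjusted p of 0.0259 in limma.

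*Atf3*, a bZIP factor strongly induced by stress in many cells, had nearly the same value on the replicating arrays, 10.95, 10.98 and 10.94, and the widest spread of the 10 genes on the quiescent arrays, 10.74, 7.48 and 11.51. Its probe has coordinates of 33 bases in the files (chromosome 13, 107191582 to 107191614, minus strand). Means were 10.96 ± 0.021 and 9.91 ± 2.14 (SD, n = 3). The ratio of 1.05 (standard error 0.83, 95% interval -1.08 to 3.17, unadjusted p = 0.262 in limma) was 0.22, 3.50 and -0.57 in the preparations, and -0.18 without preparation 2. The difference of quiescent array 2 from the mean of the other quiescent arrays was -3.64 log2 units for *Atf3*, at percentile 0.717 of this difference over all probes.

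*Ier2*, a nuclear protein induced early by growth factors, read 12.97, 13.12 and 12.95 in the replicating and 12.80, 12.44 and 13.48 in the quiescent β-cells with its brighter probe (chromosome 19, 25160648 to 25160707, plus strand). The quiescent values lay on both sides of the replicating ones. The ratio was 0.10 (standard error 0.37, 95% interval -0.84 to 1.05, unadjusted p = 0.789 in limma), with 0.17, 0.68 and -0.53 in the preparations. The dimmer probe, from 25159377 to 25159436, disagreed in preparation 3: it read 9.08, 9.49 and 10.18 against 8.84, 7.13 and 9.89, for ratios of 0.24, 2.36 and 0.30 and a fitted ratio of 0.97 with an unadjusted p of 0.125 in limma.

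*Dusp1*, the phosphatase that turns MAP kinases off, had ratios of 0.75, 0.78 and 0.26 in the preparations, all above 0. It read 8.76, 8.71 and 9.19 in the replicating and 8.01, 7.93 and 8.93 in the quiescent β-cells; the files give its probe a span of chromosome 10 from 16944342 to 16944661, plus strand, longer than the probe itself. The groups overlapped, because preparation 3 read higher than the others in both fractions. The ratio was 0.60 (standard error 0.32, 95% interval -0.22 to 1.41, unadjusted p = 0.119 in limma), and it changed little without preparation 2, to 0.51. Scaled to the 75th percentile it was 0.14.

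**Figure D2:**
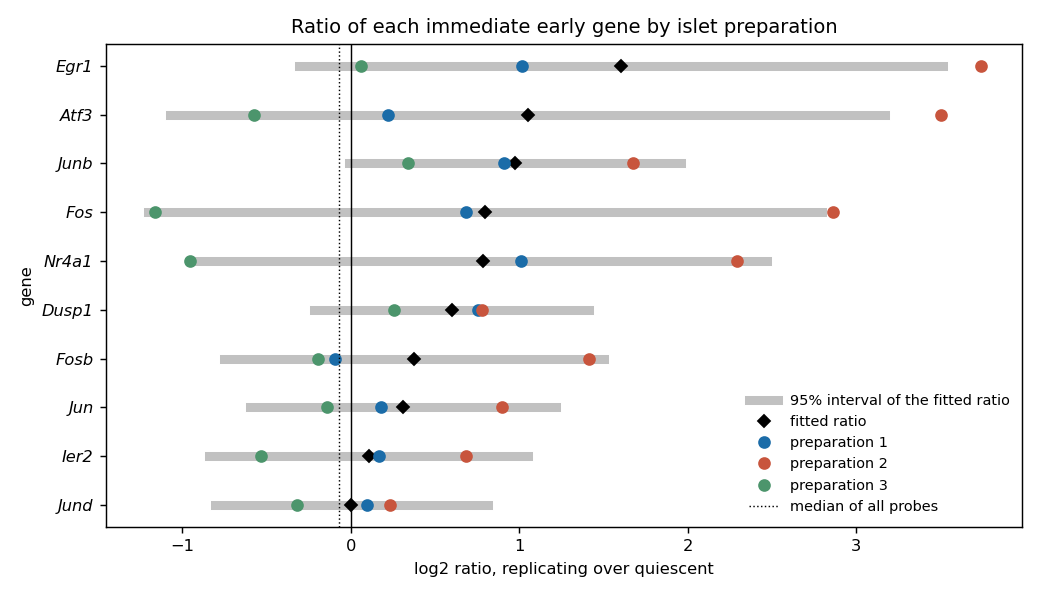
Log2 ratio of replicating over quiescent β-cells (horizontal axis) of each immediate early gene, with 1 circle per islet preparation, a diamond for the fitted ratio, a grey bar for its 95% interval and a dotted line at the median of all probes, -0.07. Preparation 2 gave the highest and preparation 3 the lowest ratio for all 10 genes, and every grey bar crosses 0.

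The ratio differed in the same order between the preparations for each gene. It was highest in preparation 2 and lowest in preparation 3 for 10 of 10 genes, an order found in 27.6% of all probes. It was above 0 for 9 genes in preparation 1, with a median of 0.45, for 10 genes in preparation 2, with a median of 1.55, and for 3 genes in preparation 3, with a median of -0.26. Among all probes the shares above 0 were 49.2%, 48.3% and 44.4%, and the medians -0.016, -0.049 and -0.045. In preparation 2 the ratio exceeded 1 for 6 genes and in preparation 1 for 2, *Egr1* and *Nr4a1*; in preparation 3 it exceeded 1 for 0 and was below -1 for *Fos*. *Junb*, *Egr1* and *Dusp1* were above 0 in every preparation, 3 of 10 where 15.7% of all probes were, and 0 genes were below 0 in every preparation, against 20.5%. In *Junb* and *Egr1* all replicating arrays lay above all quiescent arrays, 2 of 10 where 9.01% of all probes did, and the opposite held for 0 of 10 against 7.1%.

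The spread lay mostly on the quiescent side. Across the replicating arrays the 10 genes spanned 0.042 to 0.81 log2 units, and across the quiescent arrays 0.23 to 4.03. The quiescent span was the wider in 8 of 10 genes, the exceptions being *Jun* and *Jund*, but so it was in 85.8% of all probes. Quiescent array 2 was the lowest of the 6 arrays for 9 of 10 genes, against 35.2% of all probes, and its difference from the mean of the other quiescent arrays had a median of -0.97 log2 units, where the median of all probes was -0.02. Such a drop was not confined to these genes, since the median was -1.59 for 16 AP-1 and ATF partners and -1.22 for 10 alpha cell markers, while it was 1.60 for 10 acinar markers. *Fos*, *Egr1*, *Atf3* and *Nr4a1* lay more than 2 units below, *Fosb*, *Junb*, *Ier2* and *Dusp1* between 0.5 and 2 below, and *Jun* and *Jund* within 0.5. At the other end, quiescent array 3 was the highest of the 6 for *Fos*, *Nr4a1*, *Atf3* and *Ier2*, and replicating array 2 for *Fosb*, *Jun*, *Junb*, *Jund* and *Egr1*. The low readings of the immediate early genes were thus on the array with the most outlier spots. The values above were computed with those spots set to missing. With outlier spots kept, the median ratio of the 10 genes was 0.68. The ratio of *Nr4a1* was then 0.77 in place of 0.78, and those of the other members did not change. Keeping or dropping marked spots cannot address the unmarked spots of the array, and why quiescent array 2 read these genes low was not tested. In sorted pools, fewer cells with a transcript and less of it per cell cannot be told apart.

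**Figure D3:**
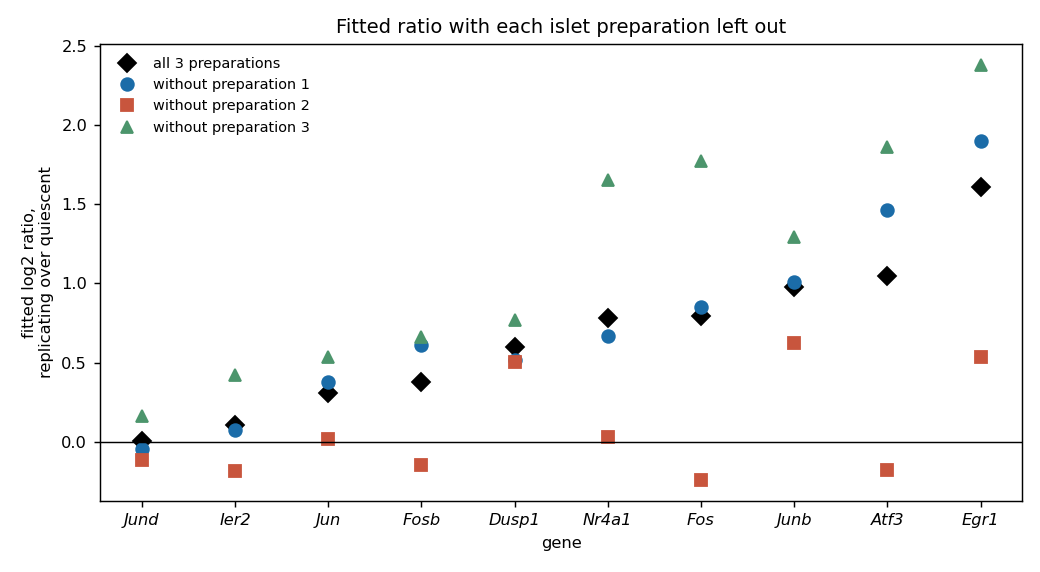
Fitted log2 ratio of replicating over quiescent β-cells (vertical axis) of each immediate early gene with all 3 islet preparations (diamonds) and with each preparation left out (other symbols). Without preparation 2 the ratios lay between -0.24 and 0.62, and without preparation 3 every ratio was at its highest.

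Leaving out a preparation changed the picture for the group. Without preparation 2 the median ratio of the 10 genes was -0.047, next to -0.066 for all probes, and 5 genes were above 0. Without quiescent array 2 alone, in a fit with no block, the median was 0.040 and 6 genes were above 0. Without preparation 3 the median was 1.03, and *Fos*, *Junb*, *Egr1* and *Nr4a1* were called higher, 4 of 10 genes where 11.2% of all probes were called higher. *Junb*, *Egr1* and *Dusp1* remained above 0.5 without preparation 2, at 0.62, 0.54 and 0.51.

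Several genes followed each other over the arrays, as a description over 6 arrays from 3 preparations. The Pearson's r of a gene with the mean of the other 9 was 0.98 for *Egr1*, 0.95 for *Fos* and *Atf3*, 0.94 for *Nr4a1*, 0.86 for *Junb* and *Ier2*, 0.76 for *Fosb*, 0.73 for *Dusp1*, 0.55 for *Jun* and 0.13 for *Jund*. The 4 genes with the highest r were also those that quiescent array 2 read furthest below the other quiescent arrays. Among the other genes on the array, *Ankrd13c*, *Larp4b* and *Zbtb6* were most like the mean of the 10, each with an r of 0.999, and 2794 of 14633 genes, or 19.1%, had an r over 0.9. A likeness of this degree was thus common on these arrays.

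Genes of the wider early response were measured as well, from lists set up by their known role. Of 49 other early response genes on the array, 7 were called higher in the replicating β-cells and 0 lower, or 14.3% against 4.44% of all probes called higher. Their median ratio was 0.53, with 0.64, 0.92 and 0.025 in the preparations, and 36 of 49 were above 0, against 20660 of 45598 probes. As for all probes, 0 passed the adjusted p, which was 0.475 in limma for each of the 7.

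*Plk2*, a kinase of the polo-like family induced early by serum, had the smallest p. It read 9.78, 9.15 and 8.98 in the replicating and 6.79, 7.21 and 7.66 in the quiescent β-cells. The groups were apart by 1.33, and the ratio was 2.09 (standard error 0.43, unadjusted p = 0.00417 in limma), with 2.99, 1.94 and 1.33 in the preparations. *Gadd45a*, a growth arrest and DNA damage gene, read 12.53, 12.57 and 12.47 against 11.22, 10.64 and 11.11, for a ratio of 1.54 (standard error 0.33, unadjusted p = 0.0049 in limma). Its groups did not overlap either, and its ratio was 1.31, 1.94 and 1.36. *Plk2* and *Gadd45a* were called higher in the fit used here and under all 12 alternatives, and no other gene of the list was.

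*Fosl2*, a Fos family member outside the 10 genes, was higher on every replicating array than on any quiescent array. It read 12.12, 11.96 and 11.67 against 11.11, 9.59 and 10.68. Its ratio was 1.46 (standard error 0.41, unadjusted p = 0.0160 in limma), with 1.01, 2.37 and 0.99 in the preparations, unlike *Fos* and *Fosb*, whose ratios in preparation 3 were below 0. Whether *Fosl2* differed from *Fos* in its response was not tested.

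The other genes called higher were *Id3* and *Id1*, inhibitors of bHLH factors, *Ier3*, a gene linked to cell survival, and *Nfkbiz*, a nuclear partner of NF-kappaB. *Id3* had a ratio of 1.92 (unadjusted p = 0.0203 in limma), *Id1* of 1.75 (unadjusted p = 0.0391), *Ier3* of 1.68 (unadjusted p = 0.0325) and *Nfkbiz* of 1.36 (unadjusted p = 0.0436). In preparation 3 these ratios were smaller, 0.49, 0.23, 0.61 and 0.10, and in preparation 2 they were 3.23, 3.35, 3.22 and 2.36. On quiescent array 2 *Id3* and *Id1* read 6.17 and 6.15, near 5.91, the lowest value of any probe well above background there. The calls of *Id1*, *Ier3* and *Nfkbiz* were made in 8 of 13 settings, that of *Id3* in 12 and that of *Fosl2* in 11. Without quiescent array 2 alone, in the fit with no block, 6 of the 49 genes were called higher, against 3.07% of all probes. There *Id1*, *Ier3* and *Nfkbiz* had ratios of 0.77, 0.81 and 0.89 and were no longer called, and *Id3* and *Fosl2* had ratios of 1.12 and 1.02 and were.

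**Figure D4:**
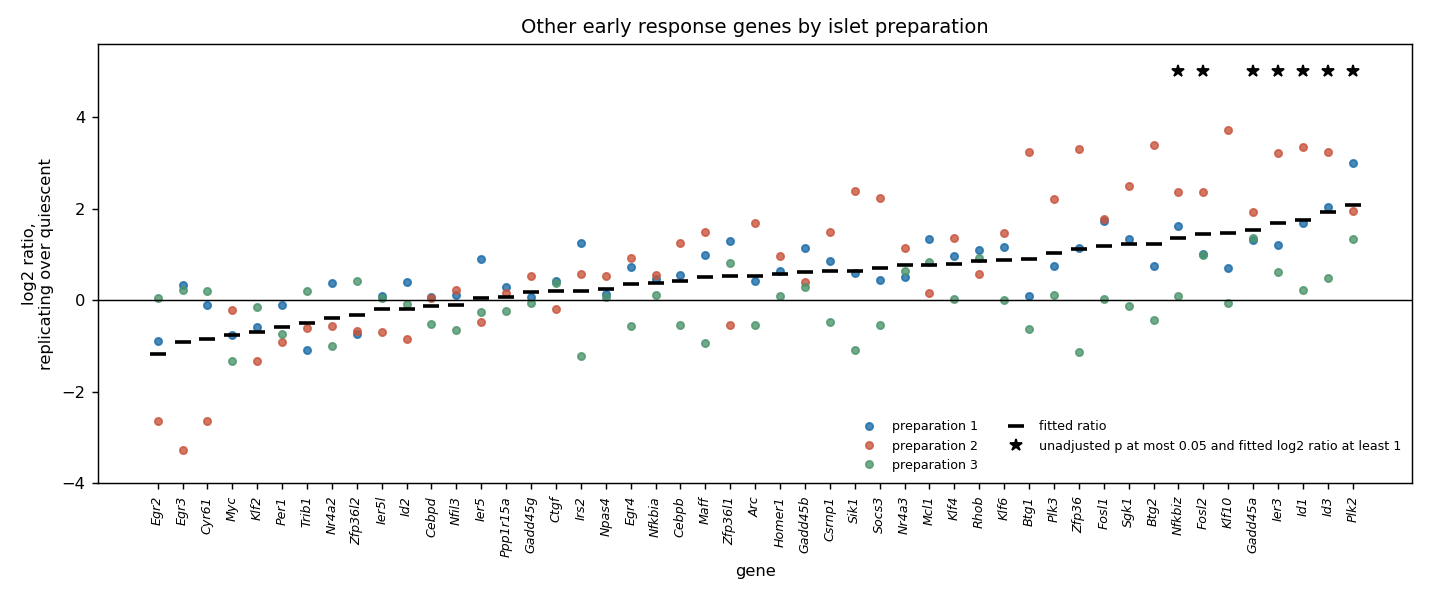
Log2 ratio of replicating over quiescent β-cells (vertical axis) of the 49 other early response genes in each islet preparation (circles), with the fitted ratio as a bar and a star above the 7 genes called higher. The called genes have ratios above 0 in all 3 preparations, and preparation 2 (red) holds most of the ratios above 2.

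Of 16 genes for bZIP partners of AP-1 and relatives of Atf3, 2 were called higher and 1 lower, where 4.44% of all probes were higher and 4.18% lower. *Jdp2*, a Jun partner that represses AP-1 targets, read 10.74, 11.04 and 10.30 in the replicating and 9.0, 9.15 and 10.06 in the quiescent β-cells, with a ratio of 1.29 (unadjusted p = 0.0328 in limma). *Mafk*, a small Maf protein, had a ratio of 1.95 (unadjusted p = 0.0408), with 1.60, 3.91 and 0.34 in the preparations. Without quiescent array 2 the ratio of *Mafk* was 1.22 and it was still called, and without preparation 2 it was 0.97 and not called, nor was *Jdp2*, at 0.99. *Mafa*, which activates the insulin genes and also stood in the list of β-cell markers, was lower in every preparation. It read 12.22, 12.17 and 12.07 against 13.47, 12.67 and 13.34, and fell by 1.01 on the log2 scale (unadjusted p = 0.0304 in limma), with -1.25, -0.50 and -1.27 in the preparations. The median of the list was 0.79, but -0.080 in preparation 3.

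Of 43 kinases and transcription factors that induce immediate early genes, 3 were called higher and 0 lower, or 6.98% against 4.44%. Among the probes within the brightness range of the 10 immediate early genes, a similar share, 6.85%, was called higher. *Camk1*, a calcium-dependent kinase, had a ratio of 1.21 (unadjusted p = 0.0222 in limma), *Map2k3*, which activates p38, of 1.02 (unadjusted p = 0.0400), and *Ppp3cb*, a catalytic subunit of calcineurin, of 2.13 (unadjusted p = 0.0402). The ratios of these genes in preparation 3 were 0.53, 0.31 and 0.60. Without quiescent array 2 they were 1.41, 0.97 and 1.15, and *Map2k3* was not called; without preparation 2 they were 0.94, 0.87 and 0.995, and 0 of the 3 were called. The median of the list was 0.22. Of 18 phosphatases and inhibitors that limit the same response, such as the Dusp and Spry families, 0 were called, against 8.61% of all probes, 0 had an unadjusted p of at most 0.05 in limma, against 9.6%, and the median was 0.32.

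Markers of other cell types moved with the fractions, and their part in the ratios above was not tested. Of 20 fibroblast and stellate cell markers 8 were called higher, where 4.44% of all probes were, and their log2 summed level was 14.38 to 15.71 on the replicating and 13.44 to 13.57 on the quiescent arrays. *Col3a1* had a ratio of 3.04, *Vim* of 1.89 and *Col1a1*, which was not called, of 1.54. Of 10 alpha cell markers 2 were called higher, *Gcg* at 2.39 among them, with summed levels of 15.63 to 16.78 against 13.21 to 15.49. Of 5 delta and PP cell markers 3 were called higher, *Sst* at 1.74 (1.11 and not called without quiescent array 2) and *Ppy* at 1.21 among them, with 12.52 to 13.45 against 11.50 to 12.22. Of 14 immune markers 4 were called higher, with 13.67 to 14.20 against 12.98 to 14.80, and *Ptprc*, which read 6.31 to 6.92, stood clear of background on all replicating but only 2 quiescent arrays. Of 10 endothelial, 10 acinar and 9 duct markers 0, 1 and 1 were called higher. Unlike the immediate early genes, the fibroblast and stellate list had its smallest median ratio in preparation 2, at 0.82, against 1.59 and 1.16 in preparations 1 and 3. The immune and duct lists were also smallest there, at 0.14 and -0.40. Other lists had the order of the immediate early genes, highest in preparation 2 and lowest in preparation 3. In preparations 1, 2 and 3 the medians were 0.46, 0.99 and 0.44 for alpha cell, 0.21, 0.52 and -0.093 for acinar and 0.33, 0.46 and -0.21 for endothelial markers.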

How the data were processed

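Total RNA of the sorted β-cells was amplified by whole transcriptome amplification, labelled with Cy3 and read on Agilent rat arrays of 1 colour, 1 array per sample. The authors deposited the scanner intensity of each spot from Feature Extraction, not normalized between arrays. They also deposited log2 values, which the methods describe as corrected with normexp and quantile normalized. These log2 values were used here; they differed by at most 0.116 from normexp values (offset 50) computed from the deposited intensities. Array intensities give no read depth, so the number of arrays, 3 per group, limits the precision.

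Control spots were left out, outlier spots were set to missing, and spots of 1 probe were averaged. Each of 45598 probes was tested with limma 3.58.1 (lmFit and eBayes) in R 4.3.3, blocked by islet preparation, since the methods name a paired test. A gene was called where its absolute log2 ratio was 1 or more and its unadjusted p no higher than 0.05, which are thresholds of the study, and Benjamini-Hochberg adjustment covered all probes. The probe with the highest mean over all 6 arrays stood for a gene. Genes were named by the array files. The sample titles number the replicates 1 to 3 in each fraction, and samples of the same number were taken as 1 islet preparation. Across probes, the r between partners, each taken relative to its group mean, was 0.0561, 0.242 and 0.258. The fit was tested on simulated data. The members and gene lists were chosen with earlier results of these data known. All members are named, and of the other lists the genes called, by smallest p and at most 8 a list, defining markers, and the 3 genes most like the members. Alternatives were values computed here at normexp offsets of 50 and 0, scaling to the 75th percentile of normexp or of processed signals, only probes detected well above background throughout at least 1 group, outlier spots kept, no block, the median over a gene's probes, and each preparation left out. Leaving out quiescent array 2 alone, without a block, was added after seeing the data. Promoters came from RefSeq, and motifs were searched on both strands.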

Additional observations from a re-analysis of the deposited data

How the results depend on the processing

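All 6 arrays lay on 1 slide, so a slide block was not run. The count of immediate early genes called was 0 of 10, where 8.61% of all probes were called in either direction. It became 1 (*Egr1*) with normexp values scaled to the 75th percentile, where 16.4% of all probes were called. It ranged from 0 to 4 when a preparation was left out, with 4 without preparation 3, where 23.6% of all probes were called. The median ratio of 0.69 ranged from -0.047 to 1.03 when a preparation was left out and was 0.040 without quiescent array 2 alone; the cause was not tested. Both scalings to the 75th percentile moved the median of all probes, from -0.07 to -0.39 and, with processed signals, -0.71, and the median of the 10 genes to 0.33 and 0.38; relative to all probes it went from 0.76 to 0.72 and 1.10. Without the pairing (no replicate block) the count of members called was 0 and the median 0.69, and the block changed no call among the 10 genes. Of the other early response genes 7 were called, 6 without the block, 3 with processed signals and 11 with the median over a gene's probes, where other probes enter; without a preparation the count ranged from 2 (without preparation 1) to 16 (without preparation 3). The share of all probes called higher moved alongside, from 4.44% to 4.12% without the block, 1.45% with processed signals, 4.21% with the median over probes, 1.14% without preparation 1 and 11.2% without preparation 3. Ratios of 1 sign in all 3 preparations were 3 of 10, and 2 under both scalings to the 75th percentile; this count has no value without a preparation and does not use the block.

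With a preparation left out the ratio ranged from -0.24 to 1.77 for *Fos*, from -0.14 to 0.66 for *Fosb*, from -0.11 to 0.16 for *Jund*, from -0.18 to 1.86 for *Atf3* and from -0.18 to 0.42 for *Ier2*, each lowest without preparation 2 and highest without preparation 3. Without quiescent array 2 alone it was below 0 for *Fos* (-0.26), *Fosb* (-0.013), *Atf3* (-0.17) and *Ier2* (-0.13), and for *Jund* without preparation 1 (-0.043) and with the median over its probes (-0.087). *Jun*, *Junb*, *Egr1*, *Dusp1* and *Nr4a1* stayed above 0 under all 12 alternatives, but not by the same distance. The lowest ratio was 0.47 for *Junb*, 0.54 for *Egr1* and 0.14 for *Dusp1*. It was only 0.018 for *Jun* and 0.028 for *Nr4a1*, both without preparation 2. Without quiescent array 2 alone the ratio of *Nr4a1* was 0.060. No p in any of these settings was adjusted over the 10 genes alone. With 3 arrays per group and quiescent values spread by up to 4.03 log2 units, the 95% intervals of *Fos*, *Fosb*, *Egr1*, *Atf3* and *Nr4a1* reached more than 1 log2 unit to either side of the ratio.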

Other observations

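Heat shock genes, which code for chaperones that cells induce under protein stress, gave a comparison with another stress response. Of 16 on the array 0 were called in either direction, against 8.61% of all probes, and 0 had an unadjusted p of at most 0.05 in limma, against 9.6%. Their median log2 ratio was 0.54, with 0.44, 0.91 and -0.16 in preparations 1, 2 and 3, and 11 of 16 were above 0. Quiescent array 2 was the lowest of the 6 arrays for 9 of 16 of them, against 9 of 10 immediate early genes and 35.2% of all probes. The difference between these lists was not tested.

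*Mki67*, a marker of cycling cells, read 10.24, 12.23 and 8.20 in the quiescent β-cells of preparations 1, 2 and 3 and 12.51, 12.86 and 12.28 in the replicating β-cells, so its ratio was smallest in preparation 2, at 0.63, where the ratios of the immediate early genes were highest. *Top2a* had ratios of 3.75, 3.77 and 3.76, without such a difference between preparations. The order of *Mki67* was not common to cell cycle genes. In a list of 10 of them, with *Mki67* and *Top2a*, the median ratios were 3.77, 3.44 and 3.92 in preparations 1, 2 and 3. *Cdk1* and *Rrm2* were also smallest in preparation 2, while *Plk1* and *Pcna* were highest there.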
